A study of Homo sapiens and Mus musculus with 47 samples.

Results

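RRAGA, RRAGB, RRAGC, RRAGD, FLCN, FNIP1, FNIP2, TFEB, TFE3 and MITF, 10 genes of 57820 in each human table and of 55401 in each mouse table, were followed through every count table used. They were picked by symbol, and the set was proposed because RRAGD had the widest gap between the control antisense oligonucleotide (ASO) libraries and the other RNA-seq libraries. The levels in the ASO libraries are therefore a description where a targeting ASO is set against the control ASO, and no test is attached to them. The same holds where RRAGD in the other HEK293T RNA-seq libraries is set against the control ASO. The series holds Chrom-seq, in which a reader domain for a histone mark carries SunTag (GCN4) peptides that recruit the peroxidase APEX2, and APEX2 biotinylates nearby RNA for pull-down, together with RNA-seq. The 35 libraries used here comprised a human colon carcinoma line, HCT116, a mouse fibroblast line, NIH3T3, and a mouse neuroblastoma line, Neuro-2a, with the TAF3 reader of H3K4me3 or with a control without a reader, 3 libraries per group. They also comprised RNA-seq of the human embryonic kidney line HEK293T, carrying the H3K27me3 reader CBX7 or a control, 3 libraries each, and of HEK293T cells given a control ASO, a SETD5-AS1 ASO or a LINC00662 ASO, 3 libraries each, or a LINC00641 ASO, 2 libraries. SETD5-AS1, LINC00641 and LINC00662 are long noncoding RNAs. The labels give one protocol for all samples, namely 48 h of GCN4 and APEX2 construct expression, then 500 µM biotin-aniline (30 min) and 1 mM H2O2 (1 min), so whether the ASO cells also received it cannot be told from them. No label names separate cultures, so p-values measure the spread between these libraries, which may be technical.

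Rag GTPases work as heterodimers of RagA or RagB with RagC or RagD on the lysosome, where they bring mTORC1 to its activator when amino acids are sufficient. Folliculin, with FNIP1 or FNIP2, is the GTPase-activating protein for RagC and RagD. TFEB, TFE3 and MITF are the MiT basic helix-loop-helix factors, which switch on lysosomal and autophagy genes through CACGTG-containing elements, are held in the cytoplasm in a way that depends on RagC and RagD, and count RRAGD, RRAGC and the folliculin partners among their known targets.

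The oligonucleotides are shown first because the difference that chose these genes lies between the control ASO and all others. They are the sequences listed by the study, 20 bases each, written 5′ to 3′ in lower case with nothing capitalised. The sources used here do not say which of several ASOs to one RNA was given to the sequenced cells.
ASOXNC23: ttctccgaacgtgtcacgtt
SETD5-AS1-ASO-1: atcaatgaggatgtcatcac
SETD5-AS1-ASO-2: tcttgctatcatgacaatag
SETD5-AS1-ASO-3: cttacgcaacggataaagcc
LINC00641-ASO-1: gatgtggagcaacagaaatg
LINC00641-ASO-2: gatagtggtatagtaactgg
LINC00662-ASO-1: tgtagtctcttatctgcacc
LINC00662-ASO-2: actctgtctcaaataacttg
LINC00662-ASO-3: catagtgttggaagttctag

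On hg19, the control ASO had 0 perfect sites in the genome. The 3 SETD5-AS1 ASOs had 1 perfect site each, on the minus strand of chromosome 3 within SETD5-AS1 (chr3:9432018-9432037, chr3:9432087-9432106 and chr3:9432132-9432151), outside the exons of the GENCODE v44 annotation lifted to hg19. The LINC00641 ASOs each had a site in an exon of LINC00641 on chromosome 14, minus strand (chr14:21668966-21668985 and chr14:21668698-21668717), and the first of them had 2 perfect sites in the genome. LINC00662-ASO-1 matched once, in an exon of LINC00662 (chr19:28284662-28284681, minus strand). LINC00662-ASO-3 matched 112 genomic sites, of which chr19:28281738-28281757 lies in an exon of LINC00662, and LINC00662-ASO-2 had 0 perfect sites in the genomic sequence. The targeted RNAs checked the labels. SETD5-AS1 had 4.79, 4.32 and 4.01 CPM (counts relative to library size, scaled by TMM factors within a table) with its ASO and 50.8, 51.5 and 51.7 CPM with the control ASO. LINC00641 had 0.931 and 1.95 CPM with its ASO against 41.4, 37.1 and 39.99 CPM, and LINC00662 had 2.0, 1.25 and 1.55 CPM with its ASO against 11.98, 13.8 and 12.8 CPM. Each targeted RNA was lowest in the libraries labelled for it. Means with the other ASOs also differed from the control ASO. Mean SETD5-AS1 was 30.3 CPM with the LINC00641 ASO and 28.95 CPM with the LINC00662 ASO, against 51.3 CPM with the control ASO. Mean LINC00641 was 26.97 CPM with the SETD5-AS1 ASO and 35.8 CPM with the LINC00662 ASO, against 39.5 CPM. Mean LINC00662 was higher, at 18.3 and 17.01 CPM with the SETD5-AS1 and LINC00641 ASOs, against 12.9 CPM. How much is specific to each target was not tested.

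Promoters were searched for the E-box CACGTG, the core of the element that MiT factors bind, and for the 10-base CLEAR element, which is CACGTG with GT before it and AC after it. Both read the same on either strand. RefSeq windows of 250 bases before to 50 after a start (GRCh38.p14) were matched by symbol for 8 of the 10 members, with 13 windows in all. RRAGA and RRAGD had no entry. CACGTG occurred in the windows of RRAGB, RRAGC and FNIP1, 3 of 13, and in 7.26% of all 35116 windows. The 10-base form occurred in the RRAGB window alone among the members, and in 0.353% of all windows. The windows of RRAGB and RRAGC are printed because these Rag genes hold the element and were counted in every human table, with CACGTG in capitals.
RRAGB, GRCh38.p14, plus strand, chrX:55717499-55717798: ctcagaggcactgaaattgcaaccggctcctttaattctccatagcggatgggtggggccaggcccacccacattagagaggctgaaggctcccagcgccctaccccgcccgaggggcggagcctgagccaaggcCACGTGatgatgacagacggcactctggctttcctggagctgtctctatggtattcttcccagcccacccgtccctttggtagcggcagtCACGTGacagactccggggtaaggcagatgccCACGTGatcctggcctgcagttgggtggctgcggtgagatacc
RRAGC, GRCh38.p14, minus strand, chr1:38859723-38860022: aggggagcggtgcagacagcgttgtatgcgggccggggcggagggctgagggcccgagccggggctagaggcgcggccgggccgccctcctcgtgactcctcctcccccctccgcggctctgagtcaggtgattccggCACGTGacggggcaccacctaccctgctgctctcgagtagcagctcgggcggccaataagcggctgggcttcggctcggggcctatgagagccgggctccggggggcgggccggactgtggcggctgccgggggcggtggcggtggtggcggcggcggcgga

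Counting the start base as 0, the RRAGB matches begin at -115, -25 and 7 and the RRAGC match at -112. The FNIP1 window held matches at -175 and -94. The windows of FLCN, FNIP2, TFEB, TFE3 and MITF held none, which says only that these letters are not in those windows.

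The cell lines carried their markers with exceptions. EPCAM, KRT8, KRT18 and CDH1 were at 103 CPM or more in every HCT116 library, Vim, Thy1, Col1a1 and Col1a2 at 217 or more in NIH3T3, NEFL, NEFM, LIN28B and VIM at 98.3 or more in HEK293T, and Hand2, Gata3 and Phox2a at 34.1 or more in Neuro-2a. VIL1 reached at most 0.64 CPM in HCT116 and S100a4 0.70 CPM in NIH3T3, PAX2 lay at 4.94 to 10.98 CPM in HEK293T and Dbh at 7.05 to 16.8 CPM in Neuro-2a. Library totals ran from 8258859 to 17558305 counts. TAF3 replicate 1 of Neuro-2a stood apart over all genes, since its counts differed from those of TAF3 replicates 2 and 3 by 36.5 and 41.7 (chi-square per gene), while replicates 2 and 3 differed by 3.36.

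FLCN and FNIP1 could not be followed in the human tables. FNIP1 (hg19 chr5:130977407-131132710, minus strand) had 0 counts in all 23 human libraries used, and FLCN (chr17:17115526-17140502, minus strand) had 2 counts in LINC00662 ASO replicate 1 and 0 in the others. In the annotation the files use, another protein-coding gene on the same strand covers nearly the whole of each, CTC-432M15.3 with 99.98% of FNIP1 and RP11-45M22.4 with 99.99% of FLCN. CTC-432M15.3 had at most 5 counts in a library and RP11-45M22.4 between 2 and 21. In mouse, where the only same-strand overlap of Fnip1 was the small nuclear RNA gene Gm24198 and Flcn had none, Fnip1 had 2814 to 6068 counts and Flcn 418 to 823. Reads that fall in overlapping genes can be left unassigned by a counter, and the part of this in the human zeros was not tested. These 2 genes were below the filter (a summed count over 3 per library) and 8 members were tested in each human comparison. MITF, FNIP2 and TFEB overlap smaller or antisense genes in hg19, so their counts may include reads of those.

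RRAGD (hg19 chr6:90074355-90121989, minus strand) encodes RagD, and was the member with the widest gap. It had 6.62, 5.53 and 5.81 CPM with the control ASO, from 66 to 89 counts. It had 36.0, 37.8 and 35.9 CPM with the SETD5-AS1 ASO, 40.3 and 39.2 CPM with the LINC00641 ASO, and 42.8, 42.0 and 43.95 CPM with the LINC00662 ASO. All 8 targeting libraries lay above all 3 control ASO libraries, and the lowest of them was 5.42 times the highest control. The fitted log2 differences from the control ASO were 2.54 ± 0.12 (SE), 2.67 ± 0.13 and 2.83 ± 0.11 for the SETD5-AS1, LINC00641 and LINC00662 ASOs, or 5.81, 6.34 and 7.10-fold. These 3 comparisons share the control libraries. In the other HEK293T RNA-seq table, scaled on its own, RRAGD had 47.0, 46.3 and 41.5 CPM in the control and 37.3, 40.3 and 35.4 CPM with CBX7. These lie at the side of the targeting ASO libraries and not of the control ASO. That is part of the gap for which RRAGD was chosen, so it adds no separate evidence. A lower level in bulk RNA cannot be told apart from fewer cells with the transcript.

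**Figure D1:**
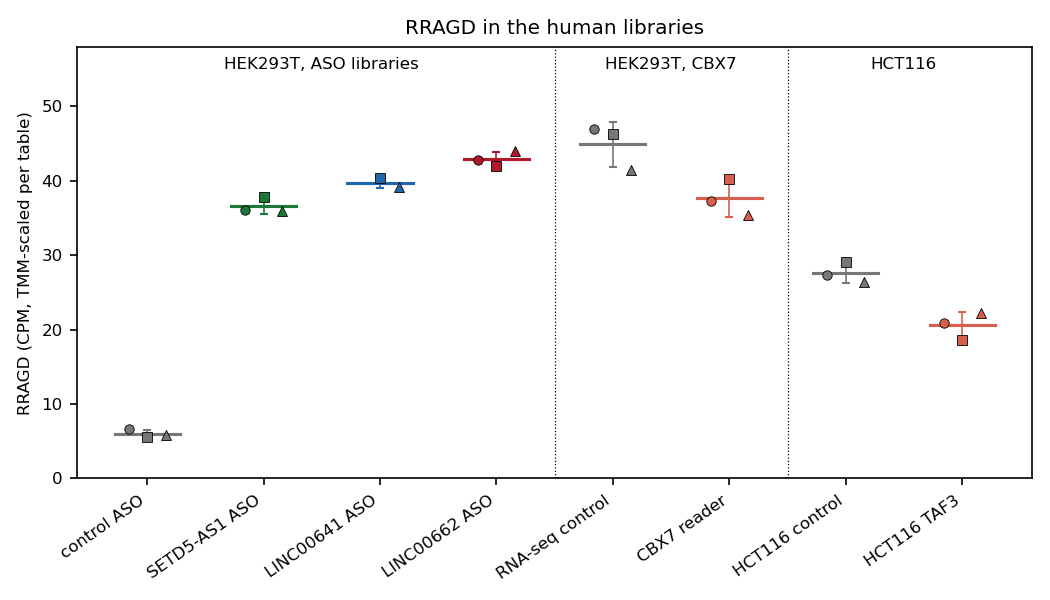
RRAGD level (CPM, TMM-scaled within each table, linear axis) in each human library by group, with replicate 1 as a circle, 2 as a square and 3 as a triangle, the group mean as a bar and the SD as whiskers. The 3 control ASO libraries lie between 5.53 and 6.62 CPM, and the other HEK293T libraries between 35.4 and 47.0 CPM.

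RRAGC (hg19 chr1:39303870-39325495, minus strand), the paralog that takes the same place in the heterodimer, lay the other way. It had 63.0, 74.3 and 74.2 CPM with the control ASO, 40.2, 39.3 and 34.5 CPM with the SETD5-AS1 ASO, 43.3 and 34.5 CPM with the LINC00641 ASO, and 47.5, 48.4 and 45.0 CPM with the LINC00662 ASO. Every control ASO library was above every targeting library. The log2 differences were -0.96 ± 0.09, -0.92 ± 0.11 and -0.59 ± 0.08 (SE) in the same order. RNA-seq control libraries of the other table had 35.3, 29.6 and 29.7 CPM.

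RRAGA and RRAGB encode the partners of these GTPases. RRAGB (hg19 chrX:55744172-55785207, plus strand) had 14.0, 15.4 and 15.9 CPM with the control ASO and 17.6 to 25.8 CPM in the targeting libraries, with no overlap. Its log2 differences were 0.25 ± 0.11, 0.41 ± 0.12 and 0.73 ± 0.11 (SE). RRAGA (hg19 chr9:19049372-19051019, plus strand) had 27.2, 28.3 and 45.7 CPM with the control ASO and 29.7 to 35.2 CPM in the targeting libraries. Control replicate 3 stood apart, and without it the log2 difference for the SETD5-AS1 ASO went from -0.16 to 0.11, that for the LINC00641 ASO from -0.12 to 0.14 and that for the LINC00662 ASO from -0.02 to 0.25.

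FNIP2 (hg19 chr4:159690290-159829201, plus strand), the folliculin partner that could be counted, had 28.4, 27.2 and 24.0 CPM with the control ASO. It had 40.6, 41.6 and 42.3 CPM with the SETD5-AS1 ASO, 52.9 and 57.2 CPM with the LINC00641 ASO, and 45.1, 45.3 and 45.3 CPM with the LINC00662 ASO. The targeting groups were also apart from each other, with the LINC00641 ASO highest. The log2 differences from the control ASO were 0.57 ± 0.09, 0.99 ± 0.10 and 0.76 ± 0.09 (SE).

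Of the MiT factors, MITF (hg19 chr3:69788586-70017488, plus strand), known for its role in melanocytes, had 7.59, 6.12 and 6.77 CPM with the control ASO. It had 9.66, 10.03 and 12.2 CPM with the SETD5-AS1 ASO, 10.6 and 11.4 CPM with the LINC00641 ASO, and 15.2, 16.8 and 17.9 CPM with the LINC00662 ASO. The LINC00662 ASO libraries were above all others, at a log2 difference of 1.27 ± 0.14 (SE) from the control ASO, against 0.57 ± 0.16 and 0.63 ± 0.17 for the SETD5-AS1 and LINC00641 ASOs. TFEB (hg19 chr6:41651716-41703997, minus strand) rested on 36 to 99 counts per library, at 4.09, 3.02 and 3.47 CPM with the control ASO and 3.85 to 6.60 CPM in the targeting libraries. The ranges overlapped. TFE3 (hg19 chrX:48886242-48901012, minus strand) had 49.6, 45.3 and 47.9 CPM with the control ASO and 39.7 to 53.9 CPM in the targeting libraries, with log2 differences of -0.12 ± 0.10, -0.07 ± 0.10 and 0.16 ± 0.08 (SE).

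**Figure D2:**
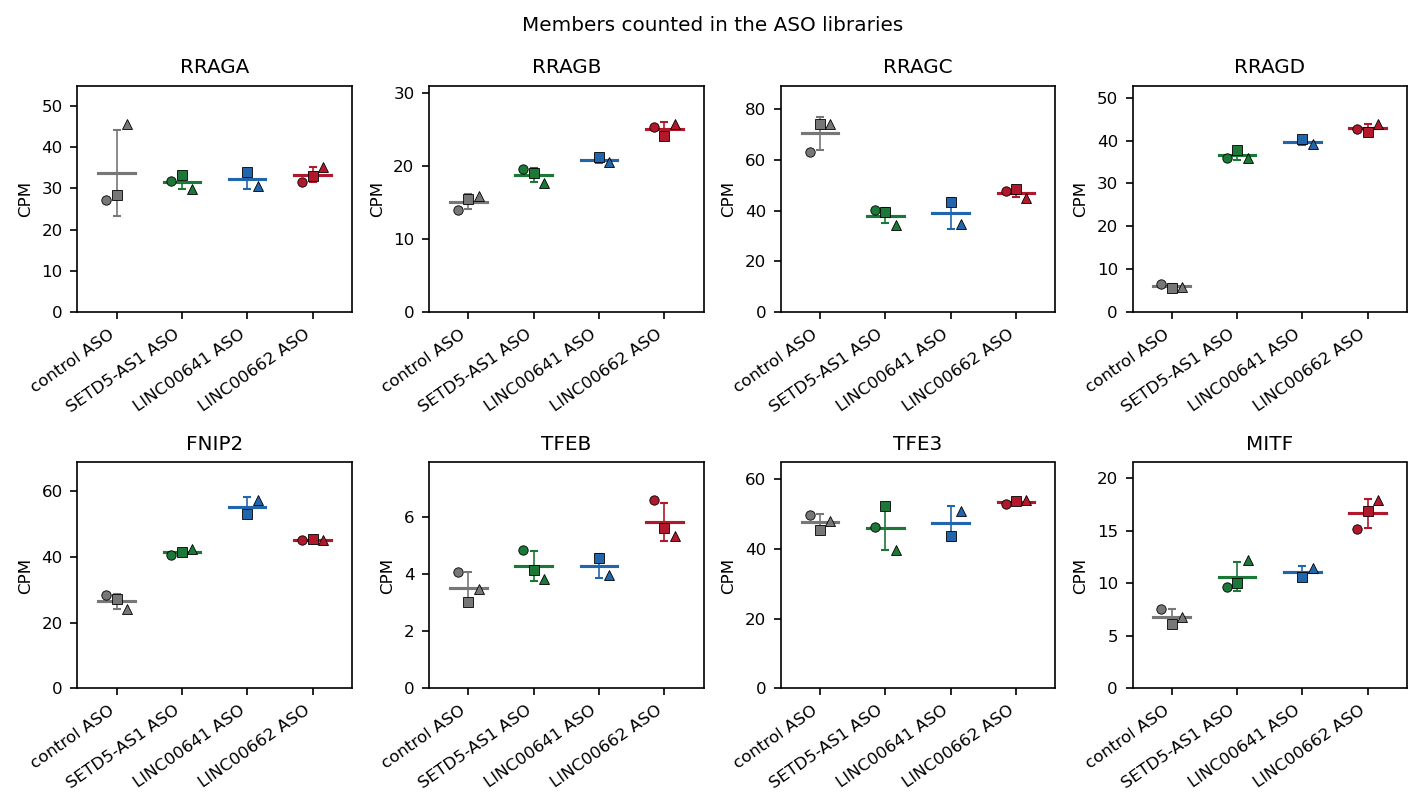
Level (CPM, TMM-scaled over the 11 ASO libraries, linear axes from 0) of the 8 members counted, by ASO group, with the same symbols, mean bars and SD whiskers. RRAGC is high and RRAGD low in the control ASO libraries, and MITF is highest with the LINC00662 ASO.

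By size alone, with no test, members at a log2 difference of at least 0.75 from the control ASO were RRAGC and RRAGD of 8 for the SETD5-AS1 ASO, where 30.8% of all genes kept by the filter were as far. For the LINC00641 ASO they were RRAGC, RRAGD and FNIP2, beside 30.1% of all genes, and for the LINC00662 ASO RRAGD, FNIP2 and MITF, beside 31%. Nothing is read from these counts, since the contrast chose the set. The median log2 difference of these 8 members was 0.23, 0.31 and 0.72 in that order, beside 0.03, 0.00 and 0.00 over all genes kept. FNIP2 lies at the fold limit for the LINC00662 ASO, at 0.76, and was just under it with DESeq2 or its size factors, and at 0.69 both with all ASO groups fitted together and without control ASO replicate 3.

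The genes whose levels followed RRAGD most closely over the 11 ASO libraries, among 10907 genes averaging 100 counts or more, included DNMT3A, ZNF609, MPRIP and BFAR. Pearson's r of log2(CPM + 1) was 0.997 for DNMT3A, 0.996 for ZNF609 and MPRIP, and 0.995 for BFAR. The points share the control ASO group, in which all 4 were low, for instance DNMT3A at a mean of 15.8 CPM against 53.9 CPM in the targeting libraries. RRAGD was chosen by that same split, so a high r describes the split and adds no separate evidence. Joint regulation was not tested. MPRIP, at 133 against 373 CPM, is also the gene whose span overlaps the 3′ end of FLCN on the other strand.

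Between targeting ASOs, which the choice of the set did not use, the differences were small. A gene was called at an edgeR quasi-likelihood adjusted p under 0.05 and a log2 change of at least 0.75 in size. No member was called between the SETD5-AS1 and LINC00641 ASOs by edgeR or DESeq2, and 1.72% of all genes were called. An unadjusted p under 0.05 was found for 1 of 8 members and for 3825 of 18337 genes. At an adjusted p under 0.05 alone, FNIP2 was lower with the SETD5-AS1 ASO by -0.41 ± 0.09 (SE) on the log2 scale (edgeR adjusted p = 0.0141), beside 5.9% of all genes. That was lost without any of 3 libraries, LINC00641 ASO replicates 2 and 3 and SETD5-AS1 ASO replicate 2, at an adjusted p of 0.0549, 0.157 and 0.0533. RRAGD differed by -0.12 ± 0.09 and RRAGC by -0.03 ± 0.11 (SE), and neither passed.

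With the LINC00662 ASO against the SETD5-AS1 ASO, all 8 fitted log2 differences were above 0 (median 0.27, beside -0.02 over all genes tested). None was called by edgeR or DESeq2, and 11.1% of all genes were called. Of the 8, 6 had an unadjusted p under 0.05, beside 7726 of 18417 genes. MITF rose by 0.65 ± 0.13 (SE; edgeR adjusted p = 0.000856), RRAGB by 0.42 ± 0.10 (adjusted p = 0.00247), RRAGC by 0.31 ± 0.08 (adjusted p = 0.0078) and RRAGD by 0.23 ± 0.08 (adjusted p = 0.0279). These 4 of 8 passed an adjusted p under 0.05, beside 32.3% of all genes tested. Without SETD5-AS1 ASO replicate 3, MITF was at 0.76 and called. RRAGD was no longer past the threshold with library size alone (adjusted p = 0.0696), with no filter (adjusted p = 0.0512) or without any one of 5 of the 6 libraries, at an adjusted p between 0.0541 and 0.085. With the replicate number as a block, TFE3 also passed, at 0.22 (adjusted p = 0.0421).

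Against the LINC00641 ASO, the LINC00662 ASO gave no called member by edgeR or DESeq2, and 8.41% of all genes called. At an unadjusted p under 0.05 there were 5 of 8 members, beside 6544 of 18363 genes. MITF rose by 0.59 ± 0.13 (SE; edgeR adjusted p = 0.00302), RRAGC by 0.28 ± 0.10 (adjusted p = 0.0468) and FNIP2 fell by 0.28 ± 0.08 on the log2 scale (adjusted p = 0.016), 3 of 8 beside 24.6% of all genes. RRAGC missed the threshold with DESeq2 (adjusted p = 0.0788), with the replicate block (adjusted p = 0.0556), with all ASO groups fitted together (adjusted p = 0.0636) and without any one of 4 of the 5 libraries (adjusted p from 0.0576 to 0.521). Without LINC00641 ASO replicate 3, RRAGC stood at 0.12 (adjusted p = 0.521) and FNIP2 at -0.23 (adjusted p = 0.146). RRAGD differed by 0.11 ± 0.09 (SE). By these tests the order of RRAGD among targeting groups, 36.6, 39.8 and 42.9 CPM for the SETD5-AS1, LINC00641 and LINC00662 ASOs, had neighbours that did not pass.

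RNA-seq of HEK293T cells with the CBX7 reader against its control asked how expression differs in cells carrying that reader. The labels call the other group a control and the study describes untreated cells, so the reader cannot be told apart from transfection and the rest of the procedure. RRAGC had 53.7, 43.8 and 41.2 CPM with CBX7 and 35.3, 29.6 and 29.7 CPM in the control, with no overlap. It rose by 0.56 ± 0.11 on the log2 scale (SE; edgeR adjusted p = 0.00145). TFEB, which controls lysosomal genes, had 9.39, 7.37 and 10.4 CPM with CBX7 and 4.84, 6.62 and 5.23 CPM in the control, also without overlap, and rose by 0.70 ± 0.19 (SE; adjusted p = 0.0102) on 58 to 108 counts per library. Without CBX7 replicate 3 its adjusted p was 0.065, and without CBX7 replicate 2 or control replicate 2 it reached 0.84 or 0.86 and was called. No member was called with all libraries by edgeR or DESeq2, and 7.66% of all genes were called. Of 8 members, 4 had an unadjusted p under 0.05, beside 7218 of 18204 genes. The 2 members past an adjusted p under 0.05 stand beside 29.2% of all genes.

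RRAGD, at the CPM given above, differed by -0.25 ± 0.09 (SE; adjusted p = 0.0522). TFE3 had 66.2, 59.3 and 71.6 CPM with CBX7 and 56.8, 54.5 and 58.8 CPM in the control, a log2 difference of 0.22 ± 0.09 (SE; adjusted p = 0.0753). Same-numbered libraries of these groups deviated together, and with the replicate number as a block RRAGD fell by 0.25 (adjusted p = 0.0255) and TFE3 rose by 0.22 (adjusted p = 0.0365), which makes 4 of 8 past the threshold. Over all genes, 6227 of 18204 were past it with that block. MITF had 13.8, 13.4 and 12.9 CPM against 11.1, 12.5 and 10.9 CPM, FNIP2 50.5, 46.3 and 51.9 against 58.1, 52.6 and 54.2, and RRAGB 20.6, 20.02 and 17.5 against 20.8, 20.4 and 23.6, and none of these passed. RRAGA spread from 23.6 to 34.5 CPM over both groups.

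Chrom-seq with TAF3 addresses the RNAs close to H3K4me3, which marks active promoters, by comparing recovery with and without the reader. No RNA-seq of TAF3-carrying cells was among the libraries used, so recovery near the mark cannot be told apart from altered expression. In HCT116, TFE3 had 31.3, 33.8 and 32.0 CPM with TAF3 and 43.9, 48.4 and 43.6 CPM in the control. It fell by 0.48 ± 0.08 on the log2 scale (SE; edgeR adjusted p = 3.2e-06). RRAGD had 21.0, 18.6 and 22.2 CPM with TAF3 and 27.4, 29.1 and 26.4 CPM in the control, and fell by 0.42 ± 0.09 (SE; adjusted p = 0.000348). Neither overlapped between the groups, though the share of all genes without overlap was not counted. Both passed under every alternative tried. RRAGB, at 18.04, 19.9 and 19.2 CPM against 20.04, 23.5 and 27.4 CPM, fell by 0.31 ± 0.10 (SE; adjusted p = 0.0161), and without control replicate 3 its adjusted p was 0.211. RRAGC, at 37.6, 42.2 and 33.8 CPM against 31.6, 32.5 and 34.1 CPM, rose by 0.21 ± 0.08 (SE; adjusted p = 0.0408) with groups that overlapped, and without TAF3 replicate 2 its adjusted p was 0.262. DESeq2 left only TFE3 and RRAGD past an adjusted p under 0.05, with RRAGB at 0.0503 and RRAGC at 0.0687.

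None of the 8 tested members was called in HCT116 by edgeR or DESeq2, and 6.62% of all genes were called. Of the 8, 4 had an unadjusted p under 0.05, beside 8077 of 18731 genes. The 4 past an adjusted p under 0.05 stand beside 34.9% of all genes. FNIP2 was at 6.88 to 11.2 CPM, TFEB at 2.78 to 4.05 and MITF at 1.25 to 3.58, where 18 to 161 counts per library set the precision, and their log2 differences were 0.28 ± 0.15, -0.11 ± 0.21 and 0.03 ± 0.29 (SE).

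In NIH3T3, Fnip1 had 365, 355 and 339 CPM with TAF3 and 284, 279 and 271 CPM in the control. It rose by 0.35 ± 0.05 on the log2 scale (SE; edgeR adjusted p = 2.65e-05). Rragc, at 109, 108 and 103 CPM against 90.6, 83.0 and 77.2 CPM, rose by 0.36 ± 0.07 (SE; adjusted p = 0.000324). Fnip2 went the other way from Fnip1, with which it shares its role, at 318, 314 and 302 CPM against 379, 365 and 342 CPM, and fell by 0.21 ± 0.06 (SE; adjusted p = 0.00646), which missed the threshold without control replicate 1 (adjusted p = 0.0648). None of the 3 overlapped between the groups, and the share of all genes without overlap was not counted. None of 9 tested members was called by edgeR or DESeq2, and 11.1% of all genes were called. Of the 9, 3 had an unadjusted p under 0.05, beside 6522 of 19220 genes. The 3 past an adjusted p under 0.05 stand beside 23.6% of all genes.

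Mitf stood at 134, 143 and 137 CPM with TAF3 and 152, 143 and 143 CPM in the control, Flcn at 39.7 to 46.1 CPM, Tfe3 at 52.3 to 62.2 CPM and Rraga at 72.3 to 91.5 CPM over both groups, with no test passed. Rragd was low, at 2.06, 1.85 and 2.07 CPM with TAF3 and 2.72, 2.61 and 2.24 CPM in the control, from 31 to 47 counts, with a log2 difference of -0.34 ± 0.34 (SE). Rragb had 0 counts in 4 of 6 libraries and at most 2 in the others. In these libraries 3 counts would be 0.171 to 0.19 CPM, so higher levels would have been seen.

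Neuro-2a differed from NIH3T3 in which Rag genes were counted. Rragd had 86.1, 84.2 and 70.9 CPM with TAF3 and 108, 101 and 95.1 CPM in the control, and Rragb had 36.3, 42.9 and 38.3 CPM against 39.8, 42.8 and 41.6 CPM. Their ranges in Neuro-2a lay far above those in NIH3T3, although the tables were scaled separately. Fnip2 and Mitf were lower in Neuro-2a, at no more than 137 CPM and 74.3 CPM, against 302 to 379 CPM and 134 to 152 CPM in NIH3T3. Fnip1, at 276 to 327 CPM in Neuro-2a, lay within its NIH3T3 range of 271 to 365 CPM.

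**Figure D3:**
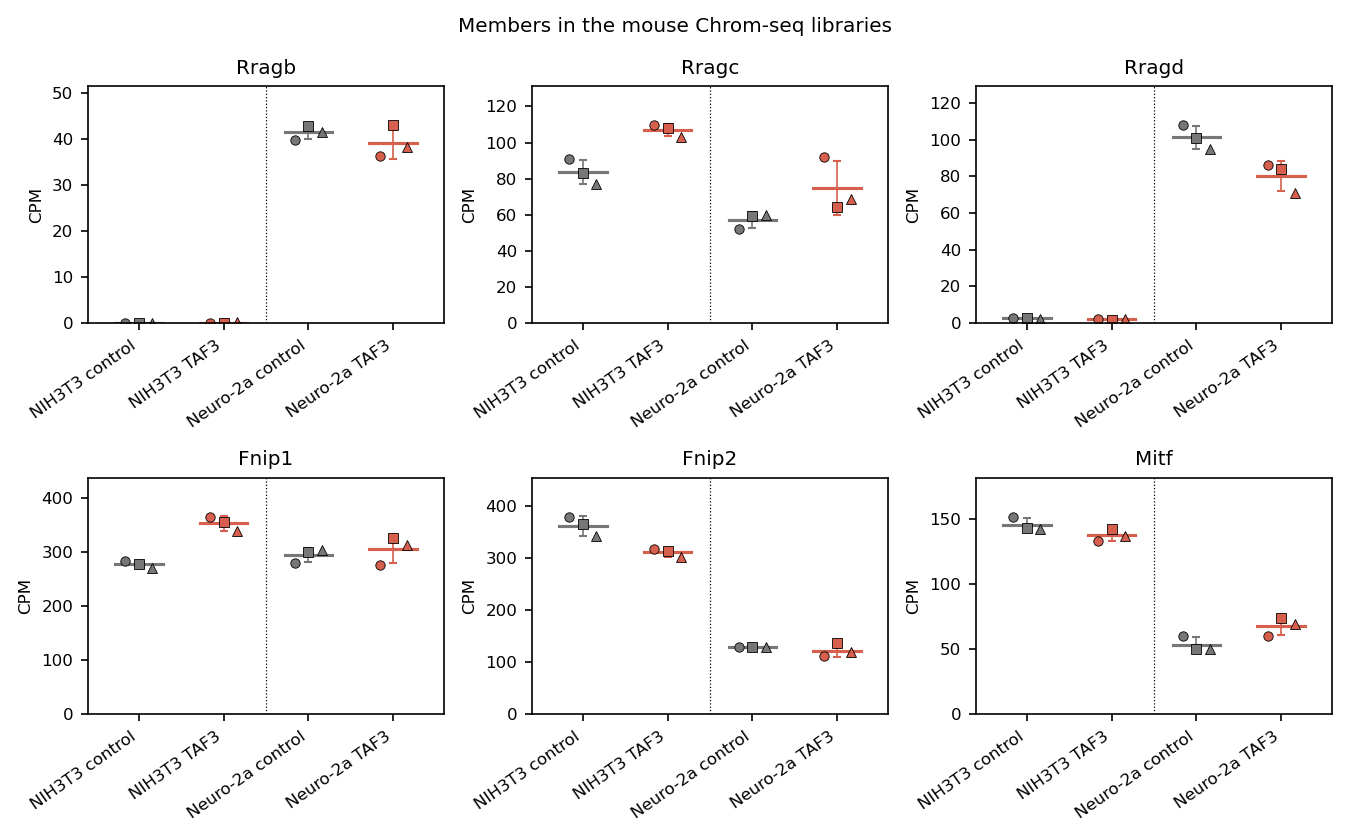
Level (CPM, TMM-scaled within each table, linear axes from 0) of 6 members in the mouse Chrom-seq libraries by cell line and reader, with replicate 1 as a circle, 2 as a square and 3 as a triangle, mean bars and SD whiskers. Rragb and Rragd are at 2.72 CPM or less in NIH3T3 and at 36.3 CPM or more in Neuro-2a, and TAF3 replicate 1 of Neuro-2a is the highest library for Rragc in that line.

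The log2 difference with TAF3 in Neuro-2a was -0.33 ± 0.11 (SE) for Rragd, 0.40 ± 0.15 for Rragc, 0.35 ± 0.13 for Mitf and 0.32 ± 0.14 for Rraga. No member passed (edgeR adjusted p = 0.187, 0.221, 0.21 and 0.29) and none was called by edgeR or DESeq2. Over all genes, 1.03% were called and 1.24% were past the adjusted p alone. An unadjusted p under 0.05 was reached by 4 of 10 members and by 2760 of 17006 genes. TAF3 replicate 1 gave 92.1 CPM of Rragc against 64.2 and 68.6 CPM in the other TAF3 libraries, 72.2 CPM of Flcn against 42.9 and 43.8, and 62.0 CPM of Tfe3 against 43.0 and 46.8. Without it, 4 of 10 members passed, namely Mitf at 0.42 (adjusted p = 0.000717), Rragd at -0.38 (adjusted p = 0.000817), Rraga at 0.40 (adjusted p = 0.00803) and Tfe3 at -0.27 (adjusted p = 0.0368). Over all genes, those past an adjusted p under 0.05 went from 211 of 17006 to 2762 of 16940, and the calls from 176 to 620.

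The difference of the TAF3 effect between the mouse lines, Neuro-2a minus NIH3T3, was tested as an interaction over 12 libraries. No member was called by edgeR or DESeq2 and none passed an adjusted p under 0.05, beside 3.05% of all genes called and 3.38% past the adjusted p alone. Of the 9 members other than Rragb, 2 had an unadjusted p under 0.05, beside 2691 of 19509 genes. Mitf differed by 0.42 ± 0.14 (SE; edgeR adjusted p = 0.132), Fnip1 by -0.30 ± 0.11 (adjusted p = 0.216) and Rragc by 0.03 ± 0.17 (adjusted p = 1.00). Without TAF3 replicate 1 of Neuro-2a, Mitf passed at 0.50 (adjusted p = 0.00304). Rragb, at 0 to 2 counts in NIH3T3, passed the filter through Neuro-2a alone, and its difference is not used.

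**Figure D4:**
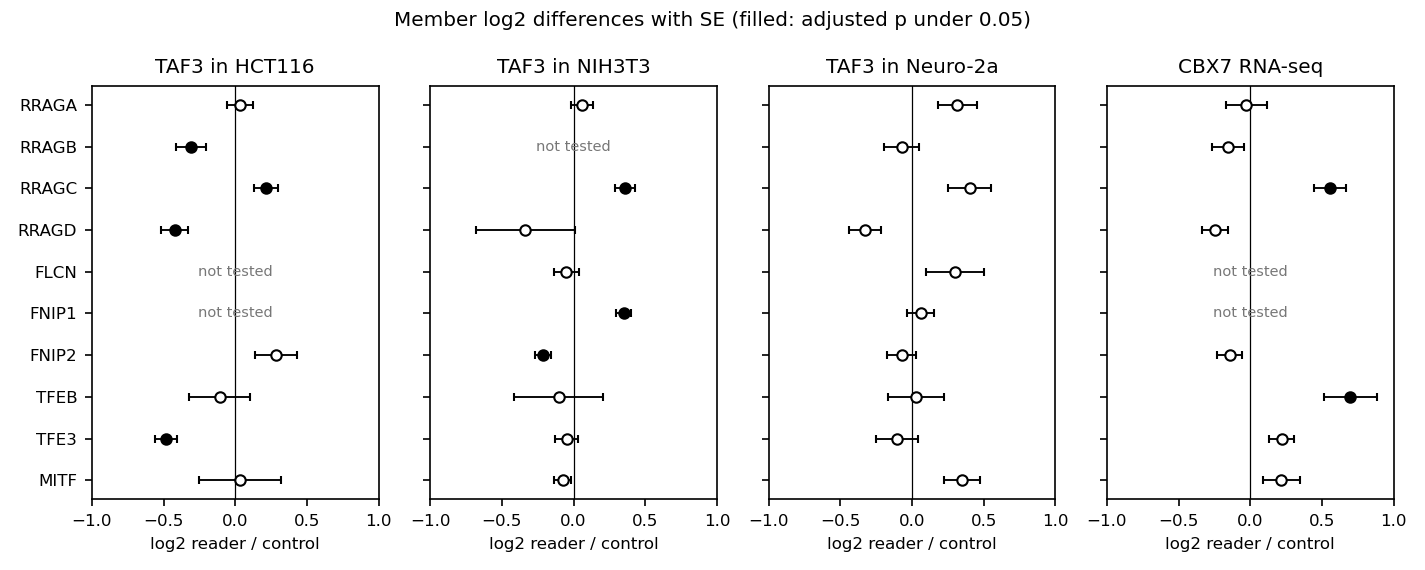
Log2 difference of each member between reader and control (points, with the SE as whiskers) in 3 TAF3 Chrom-seq comparisons and the CBX7 RNA-seq comparison, filled where the edgeR adjusted p was under 0.05. RRAGC lies above 0 in all 4 panels and RRAGD below 0 in all 4, filled for RRAGC in 3 and for RRAGD in HCT116 alone.

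Set side by side, the log2 differences of RRAGC were 0.21, 0.36, 0.40 and 0.56 in HCT116, NIH3T3, Neuro-2a and the CBX7 comparison, and those of RRAGD were -0.42, -0.34, -0.33 and -0.25. The NIH3T3 value of RRAGD had an SE of 0.34. RRAGA, FNIP2, TFEB, TFE3 and MITF, tested in the same comparisons, did not keep 1 sign. RRAGB, not tested in NIH3T3, was below 0 in HCT116, Neuro-2a and the CBX7 comparison. How many of all genes keep 1 sign was not counted. These comparisons share no libraries. The Chrom-seq values compare recovery with and without a reader, in which expression may also differ. The RNA-seq values measure expression alone, so the Chrom-seq and RNA-seq values are not the same quantity. Medians over the tested members were near those over all genes, at -0.04, -0.05, 0.05 and 0.09 beside -0.01, 0.02, 0.03 and -0.01.

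The genes around these members were taken as lists, to be read beside the 6.62%, 11.1%, 1.03% and 7.66% of all genes called in HCT116, NIH3T3, Neuro-2a and the CBX7 comparison. The Ragulator and lysosomal scaffold list (7 genes, the docking platform of the Rags) had no called gene with TAF3 in any line. With CBX7 it had 1 of 7, LAMTOR3, a Ragulator subunit, which rose by 0.86 ± 0.14 (SE; edgeR adjusted p = 0.000334). Of 17 amino acid sensing genes tested in HCT116, 1 was called, SESN2, the leucine-sensing sestrin, which fell by 1.11 ± 0.08 on the log2 scale (SE; adjusted p = 6.99e-15). No gene of that list was called with TAF3 in the mouse lines or with CBX7. The mTORC1 core and TSC list (15 tested) had 1 fall in HCT116, that of the mTOR inhibitor gene DEPTOR (-0.87 ± 0.17, SE; adjusted p = 6.88e-05), which averaged 96.8 counts per library and is named after its values were seen. It had no call in the mouse lines or with CBX7.

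Of the MiT and CLEAR target list (42 genes), 35 were tested in HCT116 with 2 rises and 1 fall, 37 with CBX7 with 0 rises and 1 fall, and 39 in NIH3T3 and 38 in Neuro-2a with none. The rises in HCT116 were those of the vacuolar ATPase subunit genes ATP6V0D1, by 0.82 ± 0.10, and ATP6V1D, by 0.79 ± 0.08 (SE; adjusted p = 1.93e-08 and 6.08e-11). GABARAPL1, an autophagosome protein, fell by 0.77 ± 0.08 (SE; adjusted p = 7.59e-11). GAA, the lysosomal acid alpha-glucosidase, fell by 0.87 ± 0.09 with CBX7 (SE; adjusted p = 5.73e-06). The list of 15 genes for kinases, calcineurin subunits, 14-3-3 proteins and an exportin that set MiT factor localisation had no call in these 4 comparisons.

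Between targeting ASOs, where 1.72%, 11.1% and 8.41% of all genes were called as given above, LAMP1, a lysosomal membrane protein and the only called MiT target, rose with the LINC00662 ASO by 0.79 ± 0.11 (SE; adjusted p = 2.44e-05) against the SETD5-AS1 ASO and by 0.81 ± 0.12 (adjusted p = 4.33e-05) against the LINC00641 ASO. RICTOR, a subunit of mTORC2, differed by -1.43 ± 0.10 and -1.68 ± 0.09 in the same order (log2, SE; adjusted p = 3.51e-09 and 3.71e-11), and BMT2 (SAMTOR, the S-adenosylmethionine sensor) by -1.36 ± 0.13 against the SETD5-AS1 ASO (SE; adjusted p = 1.97e-07) and was also called lower against the LINC00641 ASO (adjusted p = 3.66e-05). GSK3B, a kinase that acts on TFEB, was lower than with the LINC00641 ASO in both other groups, at -0.93 ± 0.10 (SETD5-AS1 ASO) and -0.78 ± 0.10 (LINC00662 ASO) (SE; adjusted p = 3.9e-05 and 4.81e-06). KICS2, a KICSTOR subunit gene at low counts, was also called lower with the LINC00662 ASO, at -1.22 ± 0.27 and -1.56 ± 0.27 (SE; adjusted p = 0.00172 and 0.000293), and RHEBL1 higher than with the SETD5-AS1 ASO, at 0.85 ± 0.20 (SE; adjusted p = 0.00285). Both averaged under 100 counts in these comparisons and are named after their values were seen. BORCS6, of the lysosomal scaffold list, was higher with the SETD5-AS1 ASO than with the LINC00641 ASO by 0.76 ± 0.19 (SE; adjusted p = 0.0301).

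Against the control ASO, which chose the set, list values are given with no test, and genes are named for a log2 difference of at least 0.75 in size. Of the 37 MiT targets kept by the filter, 5, 6 and 4 were that much lower for the SETD5-AS1, LINC00641 and LINC00662 ASOs and none higher. Over all genes, 14.7%, 15.9% and 16.6% were as much lower, and 2974 of 18544, 2629 of 18503 and 2663 of 18562 as much higher. The median log2 difference of the list was -0.21, -0.24 and -0.17. VPS18 was among the lower genes each time, at -1.21, -1.36 and -1.01. CTSA, a lysosomal carboxypeptidase, was at -1.20, -1.33 and -0.90, and VPS11, which like VPS18 belongs to the endosomal tethering complexes, at -1.07, -1.11 and -1.09. CD63 was the other gene shared by the 3 comparisons, MAP1LC3B was among them for the SETD5-AS1 ASO alone, and ATP6V1B2 and ATP6V1C1 for the LINC00641 ASO alone. In the mTORC1 list MTOR, the kinase itself, was at 1.62, 1.44 and 1.33 and RHEBL1, a relative of the activator RHEB, at -2.92, -2.69 and -2.01. RPTOR was at 1.11 and 0.81 for the SETD5-AS1 and LINC00662 ASOs, RPS6KB1 at -1.31 and -1.23 for the SETD5-AS1 and LINC00641 ASOs, and RICTOR at -1.51 for the LINC00662 ASO. SESN2 was lower each time, at -1.14, -1.26 and -1.03. WDR24 was at -0.98 and -0.95 and BMT2 at 1.46 and 1.11 for the SETD5-AS1 and LINC00641 ASOs, and WDR59 at 0.92 for the first. SEH1L was at -0.80 for the SETD5-AS1 ASO and KICS2 at -1.64 for the LINC00662 ASO. The calcineurin gene PPP3CA was higher at 1.15, 1.06 and 1.44, YWHAE at -0.88 for the SETD5-AS1 ASO and GSK3B at 0.82 for the LINC00641 ASO. The Ragulator list had no gene that far from 0 in the 3 comparisons.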

How the data were processed

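Read counts per gene were deposited by the authors as raw counts with no normalization. Per the labels and the study's methods, reads were trimmed with fastp 0.23.1, aligned to hg19 or mm10 by HISAT2 2.1.0 and assigned to GENCODE genes by featureCounts 2.0.1, with quality checks by FastQC 0.11.8 and tests by DESeq2 1.34.0. Strand use and the handling of shared reads are not given in the sources used here. The 35 libraries of 5 tables were used, of 47 samples listed, and 0 columns of other samples stood in these tables. The Chrom-seq of HEK293T was not analysed here, so the TAF3, CBX7 against dPC and HEK293T minus HCT116 comparisons planned for it were not made.

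The 2 groups of a comparison were fitted alone by edgeR 4.0.16 (quasi-likelihood test, R 4.3.3), with TMM factors and Benjamini-Hochberg adjustment, for genes with a summed count over 3 per library (18 over 6 libraries). Calls required an adjusted p below 0.05 with a log2 change of 0.75 or more in either direction, where the study used DESeq2 and took rises alone as enriched. Against the control ASO the size of the change was used alone, with no test, which was decided after seeing the data. The count at an adjusted p under 0.05 alone was added after seeing the data. SE is the change divided by the root of F. CPM levels used TMM factors within a table. Levels were not compared between genes, since lengths in the files are gene spans. How many of all genes had groups without overlap was not counted in any comparison, so a lack of overlap describes the member alone. Counting error alone is smaller than the true error, since PCR reads are not independent molecules. No replicate was a copy of another (chi-square per gene 2.48 to 41.7). Scripts were tested on simulated data.

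The members and the gene lists were chosen with earlier results of these data known. The rules were to name all 10 members in each comparison and the 5 genes most like RRAGD. From each list they took up to 2 called rises and 2 called falls among genes averaging 100 counts or more. Some genes that these rules or the marker lists name are not reported here. Alternatives were a DESeq2 1.42.0 fit, scaling by its size factors or by library size alone, dropping the filter, blocking on replicate number, fitting all ASO groups together and omitting each library in turn. Replicate numbers in the titles were taken to pair libraries where every same-numbered correlation of deviations exceeded 0.1. This held for the CBX7 RNA-seq (0.176, 0.33 and 0.13) and for the LINC00662 against the SETD5-AS1 ASO (0.141, 0.168 and 0.106). The values given first for both comparisons ignore this pairing, and the block on replicate number was an alternative.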

Additional observations from a re-analysis of the deposited data

How the results depend on the processing

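The log2 values of single members, each set under every alternative, gave 1107 comparisons with the reported value. Of these, 0 turned the direction of a value past its threshold, 29 lost an adjusted p under 0.05, 11 gained one, and 15 values against the control ASO, which carry no test, moved by more than their SE. A further 53 values past the threshold in neither setting changed sign. Against the control ASO, members past the fold limit were 5 in place of 3 for the LINC00662 ASO with library size alone, with RRAGB and TFEB added, and genes past it went from 5703, 5578 and 5749 to 12768, 12490 and 12669 with no filter, which keeps every gene with a count. In HCT116, DESeq2 left 2 of 4 members past an adjusted p under 0.05, and leaving out 1 library gave 2 to 4. With CBX7, the replicate block gave 4 in place of 2, leaving out 1 library gave 1 to 3, and called members were 0 to 1. In Neuro-2a, calls over all genes were 176, but 398 with DESeq2, 516 with no filter and 41 to 620 when 1 library was left out. Those left-out fits had 0 to 4 members and 41 to 2762 genes past an adjusted p under 0.05. For the LINC00662 ASO, leaving out 1 library gave 0 to 1 called members against the SETD5-AS1 ASO, and 1 to 3 past an adjusted p against the LINC00641 ASO. For the SETD5-AS1 against the LINC00641 ASO it gave 0 to 1 past an adjusted p, and 177 to 356 calls over all genes in place of 316, where a lone LINC00641 ASO library is assumed to vary like the others. For the interaction it gave 0 to 1. The replicate block changed no other count of called members. In the comparisons other than those named in the processing summary, libraries share only a number. The cause of these changes was not tested. TFEB outside Neuro-2a, MITF in HCT116 and Rragd in NIH3T3 rest on at most 108 counts per library, which limits what could be detected. The 3 comparisons planned for HEK293T Chrom-seq were not run.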
